A study of Mus musculus with 6 samples.

Results

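Genes of the cell cycle and of DNA replication were followed in whole mouse liver after deletion of the kinase TAK1 from endothelial cells. The list holds 46 genes given by symbol for their roles in the cycle, and all 46 were found among the 24318 rows of the expression table. By their roles, 12 act in G1, 13 in S phase and 21 in G2 and mitosis. All mice were C57BL/6 with the genotype VEcadCreERT2/TAK1flox/flox, in which both Map3k7 alleles, which encode TAK1, carry loxP sites and the VE-cadherin promoter drives a Cre recombinase that tamoxifen activates. The 3 knockout libraries were of liver from mice given tamoxifen and the 3 control libraries of liver from mice of that genotype given no treatment, so an effect of tamoxifen and an effect of the deletion cannot be told apart. The labels give triplicates without saying that they are separate animals, and a p-value then measures the spread among these libraries only. Levels are FPKM, the authors' fragment numbers corrected for transcript length and for library size.

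A cell enters the cycle in G1, when D-type cyclins switch on the kinases Cdk4 and Cdk6, the retinoblastoma protein releases E2F factors, and cyclin E with Cdk2 opens S phase. Inhibitors such as p21 (Cdkn1a) and p27 (Cdkn1b) hold these kinases back. E2F factors drive genes of DNA replication. Genes of G2 and mitosis carry a CHR element, through which the DREAM complex holds them down in resting cells and complexes with FOXM1 drive them later in the cycle. Hepatocytes of the adult liver rarely divide but can re-enter the cycle after injury, and leukocyte precursors divide often.

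Map3k7 measured 8.50, 9.02 and 9.14 FPKM in the controls and 9.28, 9.31 and 7.35 FPKM in the knockouts, a log2 fold change of -0.04 ± 0.16 (SE) and limma adjusted p = 0.868. Other liver cells also express Map3k7, and a transcript that lacks only the part between the loxP sites still counts, which leaves the labels unchecked by this gene. All 11 hepatocyte markers found were above 0.5 FPKM in every library, with a summed level of 19950 to 25406 FPKM in the controls and 18657 to 20260 FPKM in the knockouts. Of the 11, 4 were called lower (36.4%, against 13% of all tested genes) and 1 higher (9.09%, against 14.1%). Their part in the results below was not tested. Read totals are not given; steps between the lowest values put the depth at 0.923 to 1.08 times that of control 1. Over the tested genes, Spearman's rho was 0.951 to 0.971 for libraries of one group and 0.868 to 0.910 for libraries of different groups.

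Promoters of the list carried different letters in the 3 phases, in RefSeq promoters (GRCm38.p6, 250 bases before to 50 after a start site), which were found for 38 of the 46 genes. E2F letters (the run TTCCCGC or the run TTGGCGC or the run TTCGCGC or the run TTGCCGC, either strand) lay in 9 of 13 S phase promoters (69.2%), 3 of 18 mitotic promoters (16.7%), 2 of 12 G1 promoters (16.7%) and 9.57% of all 32851 promoters. CHR letters (the run TTTGAA or the run TTTAAA, either strand) lay in 15 of 18 mitotic promoters (83.3%), 5 of 13 S phase promoters (38.5%), 2 of 12 G1 promoters (16.7%) and 27.6% of all promoters. The CCAAT box (CCAAT, either strand) lay in 83.3% of mitotic, 76.9% of S phase, 33.3% of G1 and 37.4% of all promoters. A match is a description and not a binding site; E2F matches on opposite strands can overlap each other and can share letters with a CCAAT box. The 4 promoters below, from RefSeq, show the E2F type (Mcm6, and Mcm5, which also has 1 CHR match), the CHR type (Cdc20) and both together (Cdk1), for genes whose RNA rose in knockout livers. Each is the 250 bases before the start site on the gene's own strand, with matches to any of the 3 motifs in capitals: Mcm6 at chr1:128359706-128359955 on the minus strand, Mcm5 at chr8:75109259-75109508 on the plus strand, Cdc20 at chr4:118437344-118437593 and Cdk1 at chr10:69352913-69353162, both on the minus strand.
Mcm6: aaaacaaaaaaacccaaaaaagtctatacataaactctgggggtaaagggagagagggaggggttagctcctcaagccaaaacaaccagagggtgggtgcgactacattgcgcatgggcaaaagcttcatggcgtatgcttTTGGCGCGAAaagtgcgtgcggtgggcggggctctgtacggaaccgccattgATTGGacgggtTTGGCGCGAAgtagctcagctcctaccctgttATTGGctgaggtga
Mcm5: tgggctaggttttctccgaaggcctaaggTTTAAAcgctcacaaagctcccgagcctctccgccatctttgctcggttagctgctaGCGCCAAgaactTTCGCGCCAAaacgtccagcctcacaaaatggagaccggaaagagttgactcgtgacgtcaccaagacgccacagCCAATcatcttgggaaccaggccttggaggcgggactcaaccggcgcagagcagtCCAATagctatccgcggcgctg
Cdc20: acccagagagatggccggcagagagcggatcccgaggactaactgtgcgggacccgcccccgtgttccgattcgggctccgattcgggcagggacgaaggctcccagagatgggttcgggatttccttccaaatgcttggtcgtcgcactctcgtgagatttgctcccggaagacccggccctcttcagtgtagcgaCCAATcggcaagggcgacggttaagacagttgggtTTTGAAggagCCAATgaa
Cdk1: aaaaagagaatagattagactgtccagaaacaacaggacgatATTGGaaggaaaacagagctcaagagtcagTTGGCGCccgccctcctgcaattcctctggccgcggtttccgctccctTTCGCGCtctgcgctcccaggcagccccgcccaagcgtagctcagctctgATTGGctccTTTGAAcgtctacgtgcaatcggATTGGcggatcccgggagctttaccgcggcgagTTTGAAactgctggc
In Mcm6, 4 E2F matches and 2 CCAAT boxes stand before the start site, and Cdc20 holds 1 CHR match and 2 CCAAT boxes.

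**Figure D1:**
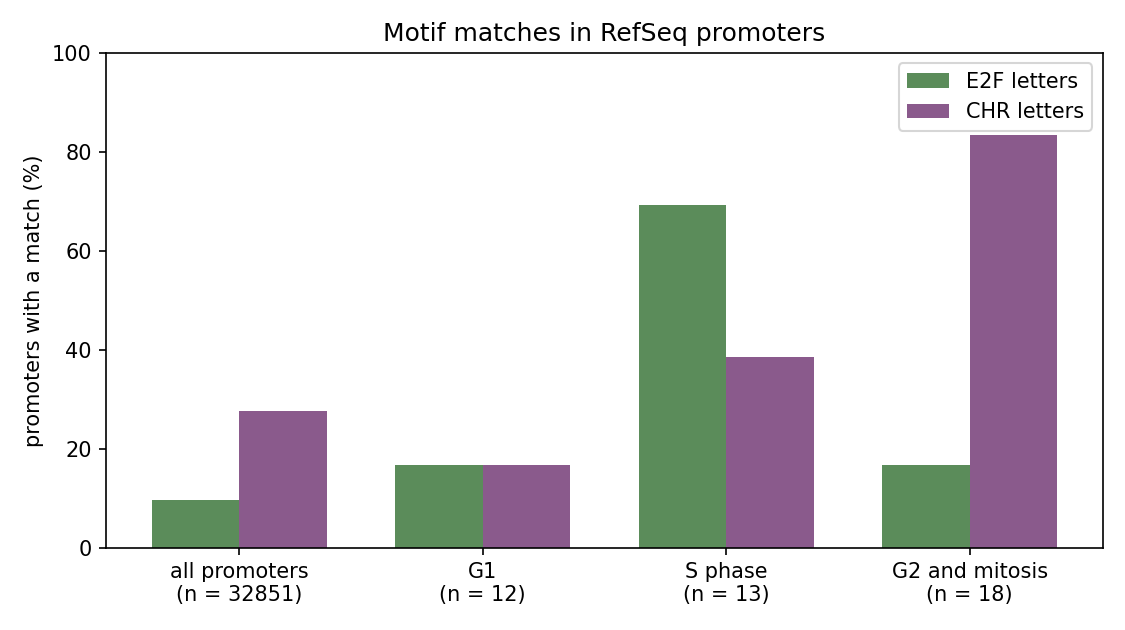
Share of RefSeq promoters of 300 bases, in percent, that hold the E2F letters (green) or the CHR letters (purple), for all promoters and for those of the G1, S phase and mitotic genes, with the number of promoters under each pair of bars. E2F letters were in 69.2% of the S phase promoters and CHR letters in 83.3% of the mitotic promoters.

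Transcripts of 4 of the 6 MCM helicase subunits and of both ribonucleotide reductase subunits were more abundant in knockout livers. So were those of 14 of 21 mitotic genes and of the cell cycle inhibitor p21. Cyclin D1 was less abundant, a call kept under only 6 of 16 alternative settings. Of the 46 genes, 22 rose, 1 fell, 19 were tested without passing and 4 were too low to be tested, by limma at a Benjamini-Hochberg adjusted p under 0.05. Tests ran on the 11842 genes that averaged 0.5 FPKM or more across all 6 libraries, of which 27% were called, 14.1% as higher and 13% as lower. By phase, 2 of 12 G1 genes rose and 1 fell, 6 of 13 S phase genes rose, and 14 of 21 mitotic genes rose. These rises are 16.7%, 46.2% and 66.7% of each phase, so the G1 share is near that of all genes. Here and below, the share of a list counts its untested genes too, while the share of all genes counts tested genes only. The median log2 difference was 0.36 over the 12 G1 genes, 0.86 over the 13 S phase genes and 1.33 over the 21 mitotic genes, against -0.00071 over all tested genes. Fold changes were taken after adding 0.5 FPKM, on the log2 scale, so those of low genes are understated. All 3 knockout libraries lay above all 3 controls for 30 of the 46 genes, against 22.4% of tested genes, and below them for 1, against 21.1%. That filter lets a gene through on its knockout values alone; the mean over controls reached 0.5 FPKM for 36 of the 46, and the called genes Cdc20, Plk1, Foxm1 and Kif11 are among the rest. With no filter, 21 rose and 0 fell, against 10.2% of genes that rose with no filter. In whole liver, more cells in cycle and more RNA per cell cannot be told apart. Rescaling every library to the same total moved the median of all genes to -0.10 and the share of calls that were rises from 52.1% to 39.5%; 1 G1, 6 S phase and 13 mitotic genes then rose.

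**Figure D2:**
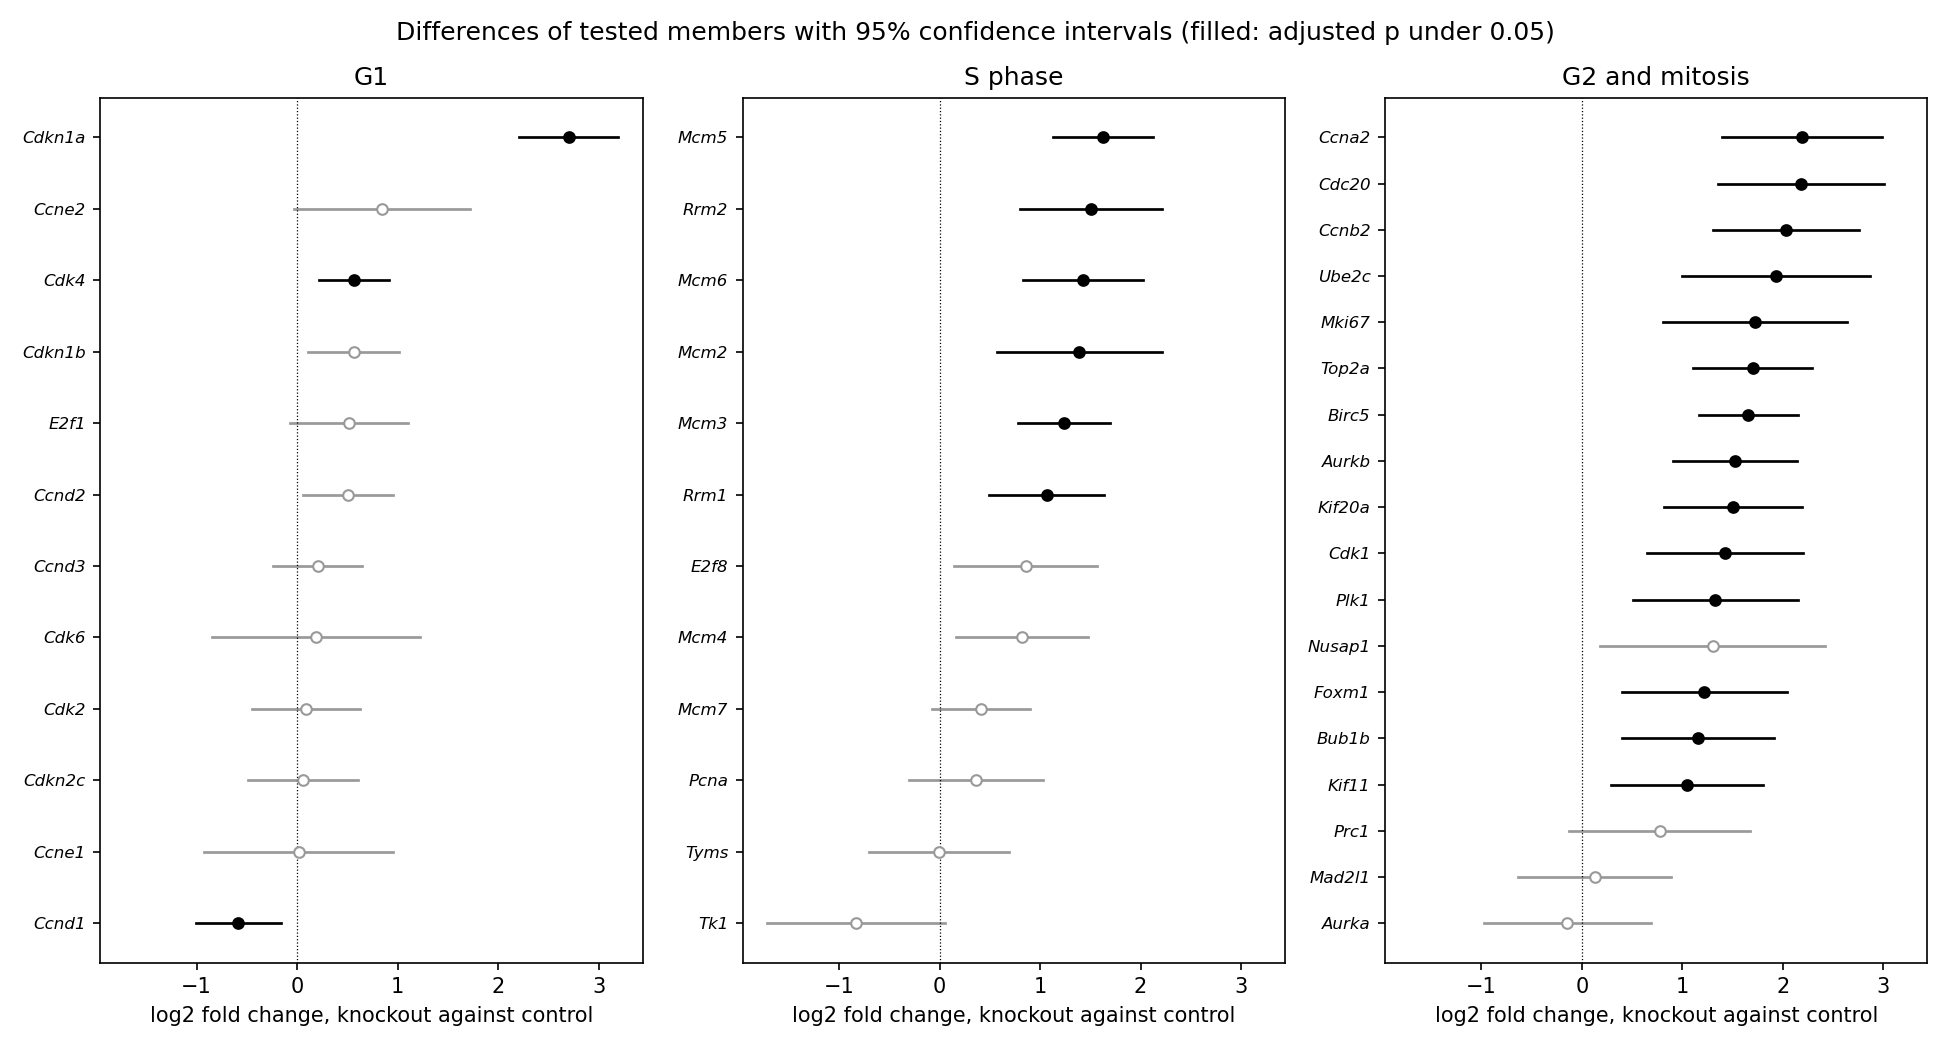
Log2 fold change of knockout against control (x axis) with its 95% confidence interval for the 42 tested genes (y axis), by phase. Filled black points passed an adjusted p under 0.05 and open grey points did not; 14 of the mitotic genes and 6 of the S phase genes lie to the right as filled points, and Ccnd1 is the filled point to the left.

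Among the G1 genes, the inhibitor p21 changed most. Cdkn1a (ENSMUSG00000023067, chromosome 17, 29090976 to 29100727 in GRCm38) blocks cyclin-dependent kinases and is induced by p53 and by other stress signals. It measured 23.4, 15.8 and 16.5 FPKM in the controls and 102, 165 and 108 FPKM in the knockouts. Every knockout library was above every control, and knockout 2 was the highest. Its mean rose from 18.6 ± 4.204 to 125 ± 34.5 FPKM (SD, n = 3), with a log2 fold change of 2.70 ± 0.22 (SE, limma adjusted p = 8.91e-05), and it was called under all 16 alternative settings. The promoters of Cdkn1a, at 2 start sites, held none of the 3 motifs.

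The other G1 inhibitors did not pass the test. Cdkn1b, which encodes p27, measured 8.48, 6.26 and 5.21 FPKM in the controls and 10.5, 10.5 and 8.79 FPKM in the knockouts. The groups did not overlap, but the log2 fold change of 0.56 (95% interval 0.11 to 1.02) did not pass (limma adjusted p = 0.0677); without control 1 it was 0.74 and did (adjusted p = 0.0367). Cdkn2c, an inhibitor of Cdk4 and Cdk6, had overlapping groups at 3.55 to 5.78 FPKM in the controls and 3.49 to 5.50 FPKM in the knockouts, a log2 fold change of 0.06 (95% interval -0.49 to 0.60).

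Cyclin D1 and its kinase Cdk4 went in opposite directions. Ccnd1 (ENSMUSG00000070348, chromosome 7, 144929931 to 144939925 in GRCm38), the D-type cyclin that mitogens induce in hepatocytes, measured 48.8, 45.5 and 52.6 FPKM in the controls and 43.0, 25.8 and 30.7 FPKM in the knockouts. Knockout 1 lay just under the lowest control and the other knockout libraries well below. The log2 fold change was -0.59 ± 0.19 (limma adjusted p = 0.0461), and it passed under 6 of the 16 alternatives only, with values of -0.79 to -0.42 and adjusted p of 0.0123 to 0.124. With 1 library left out, it passed only when that was knockout 1. In the GRCm38 annotation, 23.4% of the exonic bases of Ccnd1 are shared with Oraov1 on the other strand. Oraov1 measured 6.36, 6.36 and 7.17 FPKM in the controls and 4.52, 2.52 and 3.58 FPKM in the knockouts (log2 fold change -0.85, adjusted p = 0.02002, lost without any 1 control or knockout 2), and its part in the Ccnd1 value was not tested. Cdk4, the kinase that cyclin D1 activates, measured 20.8, 19.0 and 16.6 FPKM in the controls and 28.6, 31.1 and 24.5 FPKM in the knockouts. It rose by a log2 fold change of 0.57 ± 0.15 (adjusted p = 0.0241), a call lost under the same-total scaling (0.45, adjusted p = 0.0785), without a variance trend (adjusted p = 0.0533) and without control 2, control 3, knockout 1 or knockout 2. Of its exonic bases 19.7% are shared with Tspan31, which had a log2 fold change of -0.22 (adjusted p = 0.365).

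Neither other D-type cyclin passed the test. Ccnd2 measured 3.30, 3.19 and 2.56 FPKM in the controls and 4.59, 3.93 and 4.97 FPKM in the knockouts, groups that do not overlap, with a log2 fold change of 0.51 (95% interval 0.06 to 0.96, limma adjusted p = 0.0901). Ccnd3 measured 17.2, 18.5 and 16.1 FPKM against 19.4, 15.5 and 26.3 FPKM, with overlapping groups and a log2 fold change of 0.20 (95% interval -0.24 to 0.64). On the per-length FPKM scale, Ccnd1 made up 70.4%, 67.7% and 73.8% of the D-type cyclin level in the controls and 64.1%, 57.0% and 49.6% in the knockouts. The ratio of the Cdkn1a level to the Ccnd1 level was 0.480, 0.348 and 0.314 in the controls and 2.38, 6.39 and 3.51 in the knockouts. Both quantities separated the groups fully, at an exact two-sided permutation p of 0.1, the smallest that 3 against 3 libraries can give. For the ratio this outcome was fixed in advance, since Cdkn1a and Ccnd1 each separated the groups, in opposite directions. The ratio therefore adds no support beyond the values of these genes. The Ccnd1 share rests largely on the same Ccnd1 values and on Ccnd2, which separated the groups upward, so it is no independent support either.

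**Figure D3:**
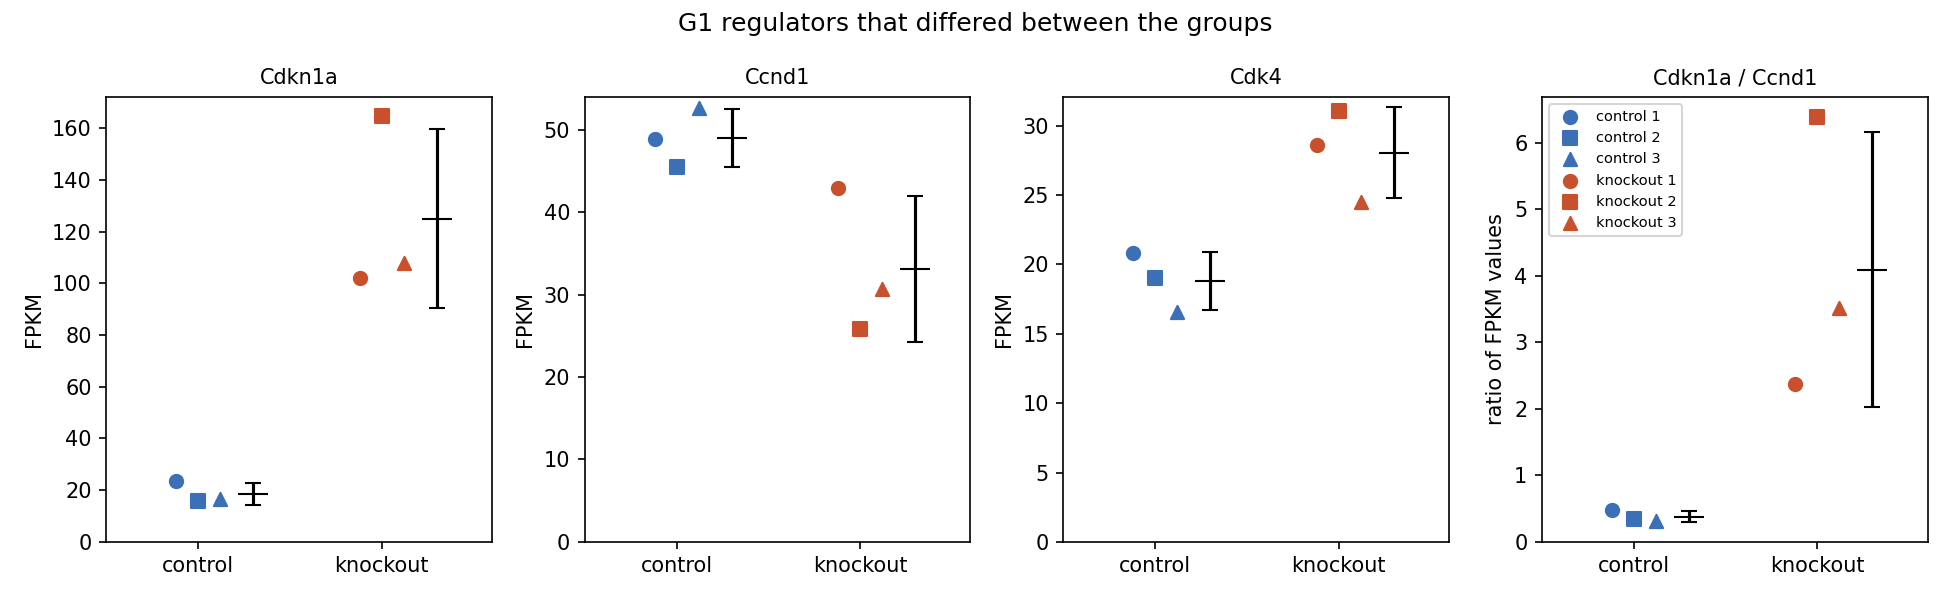
Levels in FPKM of Cdkn1a, Ccnd1 and Cdk4 and the ratio of the Cdkn1a to the Ccnd1 level (y axes from 0), 1 point per library, with mean and SD to the right of each group. Cdkn1a lies at 15.8 to 23.4 FPKM in controls and at 102 to 165 FPKM in knockouts, and the ratio goes from at most 0.480 to at least 2.38.

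The remaining G1 genes did not pass. Cdk2, the kinase partner of cyclin E, measured 2.94 to 4.84 FPKM in the controls and 3.39 to 5.14 FPKM in the knockouts (log2 fold change 0.09, 95% interval -0.45 to 0.63). Cdk6 and the cyclin E gene Ccne1 also overlapped between the groups, with log2 fold changes of 0.19 (95% interval -0.85 to 1.22) and 0.01 (-0.93 to 0.96). E2f1, the activating E2F factor, measured 1.33, 1.21 and 2.31 FPKM in the controls and 2.71, 2.49 and 2.17 FPKM in the knockouts (log2 fold change 0.52, 95% interval -0.07 to 1.10). Ccne2, the second cyclin E gene, was at 0, 0.153 and 0.767 FPKM in the controls and 0.839, 0.833 and 0.842 FPKM in the knockouts, and passed only without control 3 (log2 fold change 1.23, limma adjusted p = 0.0306).

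In S phase 4 of the 6 MCM helicase genes rose. Mcm2 to Mcm7 encode the ring that unwinds DNA at replication origins, and their summed level was 10.8, 9.45 and 14.9 FPKM in the controls and 28.8, 28.8 and 30.4 FPKM in the knockouts. Mcm5 measured 1.04, 0.941 and 1.19 FPKM in the controls and 5.05, 3.74 and 4.19 FPKM in the knockouts, a log2 fold change of 1.63 ± 0.22 (limma adjusted p = 9.81e-04). Mcm6 measured 2.16, 1.599 and 3.84 FPKM against 7.08, 7.57 and 7.19 FPKM (log2 fold change 1.43 ± 0.27, adjusted p = 0.00439). In both genes every knockout library exceeded every control, and control 3 was the highest control. The promoters printed above hold at least 3 E2F matches before the start site, with overlapping matches counted apart. Mcm3 measured 2.63, 2.41 and 3.29 FPKM in the controls and 6.53, 6.62 and 8.58 FPKM in the knockouts (log2 fold change 1.24 ± 0.20, adjusted p = 0.00234). Mcm2 measured 1.18, 0.409 and 1.70 FPKM against 3.15, 2.53 and 4.99 FPKM (log2 fold change 1.39 ± 0.37, adjusted p = 0.0206), and did not pass without control 2, knockout 1 or knockout 3.

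Mcm4 and Mcm7 did not pass. Mcm4 measured 0.984, 1.53 and 2.27 FPKM in the controls and 2.83, 4.07 and 2.54 FPKM in the knockouts, a log2 fold change of 0.82 (95% interval 0.17 to 1.48, limma adjusted p = 0.0643). It passed without control 3 (1.05, adjusted p = 0.0330) and with library weights (adjusted p = 0.0425). Mcm7, whose reads may be split with a near-identical copy over 2157 bases, measured 2.55 to 2.84 FPKM in the controls and 2.87 to 4.24 FPKM in the knockouts (log2 fold change 0.41, 95% interval -0.07 to 0.90). For all 6 ring genes the groups did not overlap, and whether the genes differed from each other in their change was not tested.

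Both subunits of ribonucleotide reductase, which makes the deoxynucleotides for DNA, rose. Rrm2, the small subunit that is made in S phase, measured 2.93, 3.70 and 3.67 FPKM in the controls and 8.43, 18.8 and 7.504 FPKM in the knockouts. Knockout 2 stood well above the other knockout libraries, and the log2 fold change was 1.51 ± 0.31 (limma adjusted p = 0.00722). A copy at 95.5% identity over 419 bases makes the Rrm2 level uncertain. Rrm1, the large subunit, measured 1.65, 2.17 and 3.34 FPKM in the controls and 4.52, 6.10 and 5.61 FPKM in the knockouts, a log2 fold change of 1.07 ± 0.25 (adjusted p = 0.0134).

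The thymidine genes did not pass as rises. Tk1, thymidine kinase, measured 4.92, 10.1 and 6.18 FPKM in the controls and 3.38, 6.77 and 1.94 FPKM in the knockouts, so that its groups overlapped and its mean was lower in knockout livers (log2 fold change -0.83, 95% interval -1.71 to 0.05, limma adjusted p = 0.148). Without knockout 2 it passed as a fall (-1.24, adjusted p = 0.0323). Tyms, thymidylate synthase, measured 0.748 to 1.97 FPKM in the controls and 1.11 to 1.55 FPKM in the knockouts (log2 fold change -0.01, 95% interval -0.70 to 0.69). Pcna, the sliding clamp of DNA polymerases, measured 3.10, 7.64 and 6.45 FPKM against 6.33, 8.28 and 6.72 FPKM (log2 fold change 0.36, 95% interval -0.30 to 1.03). The atypical repressor E2f8, which takes part in hepatocyte polyploidy, measured 0.478, 1.24 and 0.771 FPKM in the controls and 1.94, 1.28 and 2.46 FPKM in the knockouts (log2 fold change 0.86, 95% interval 0.14 to 1.57, adjusted p = 0.0742). Cdc6, which loads the MCM ring, was under 0.5 FPKM in all 6 libraries and was not tested. Cdc6, Pcna and Tyms also have near-identical copies that could take part of their reads. Of the S phase genes with a promoter, E2F letters stood in 5 of the 6 that rose, in 2 of the 5 that did not pass and in the untested Cdc6. They stood in 9.57% of all promoters, and a link between these letters and the calls was not tested. Pcna, Tyms and Tk1 had none in this window.

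**Figure D4:**
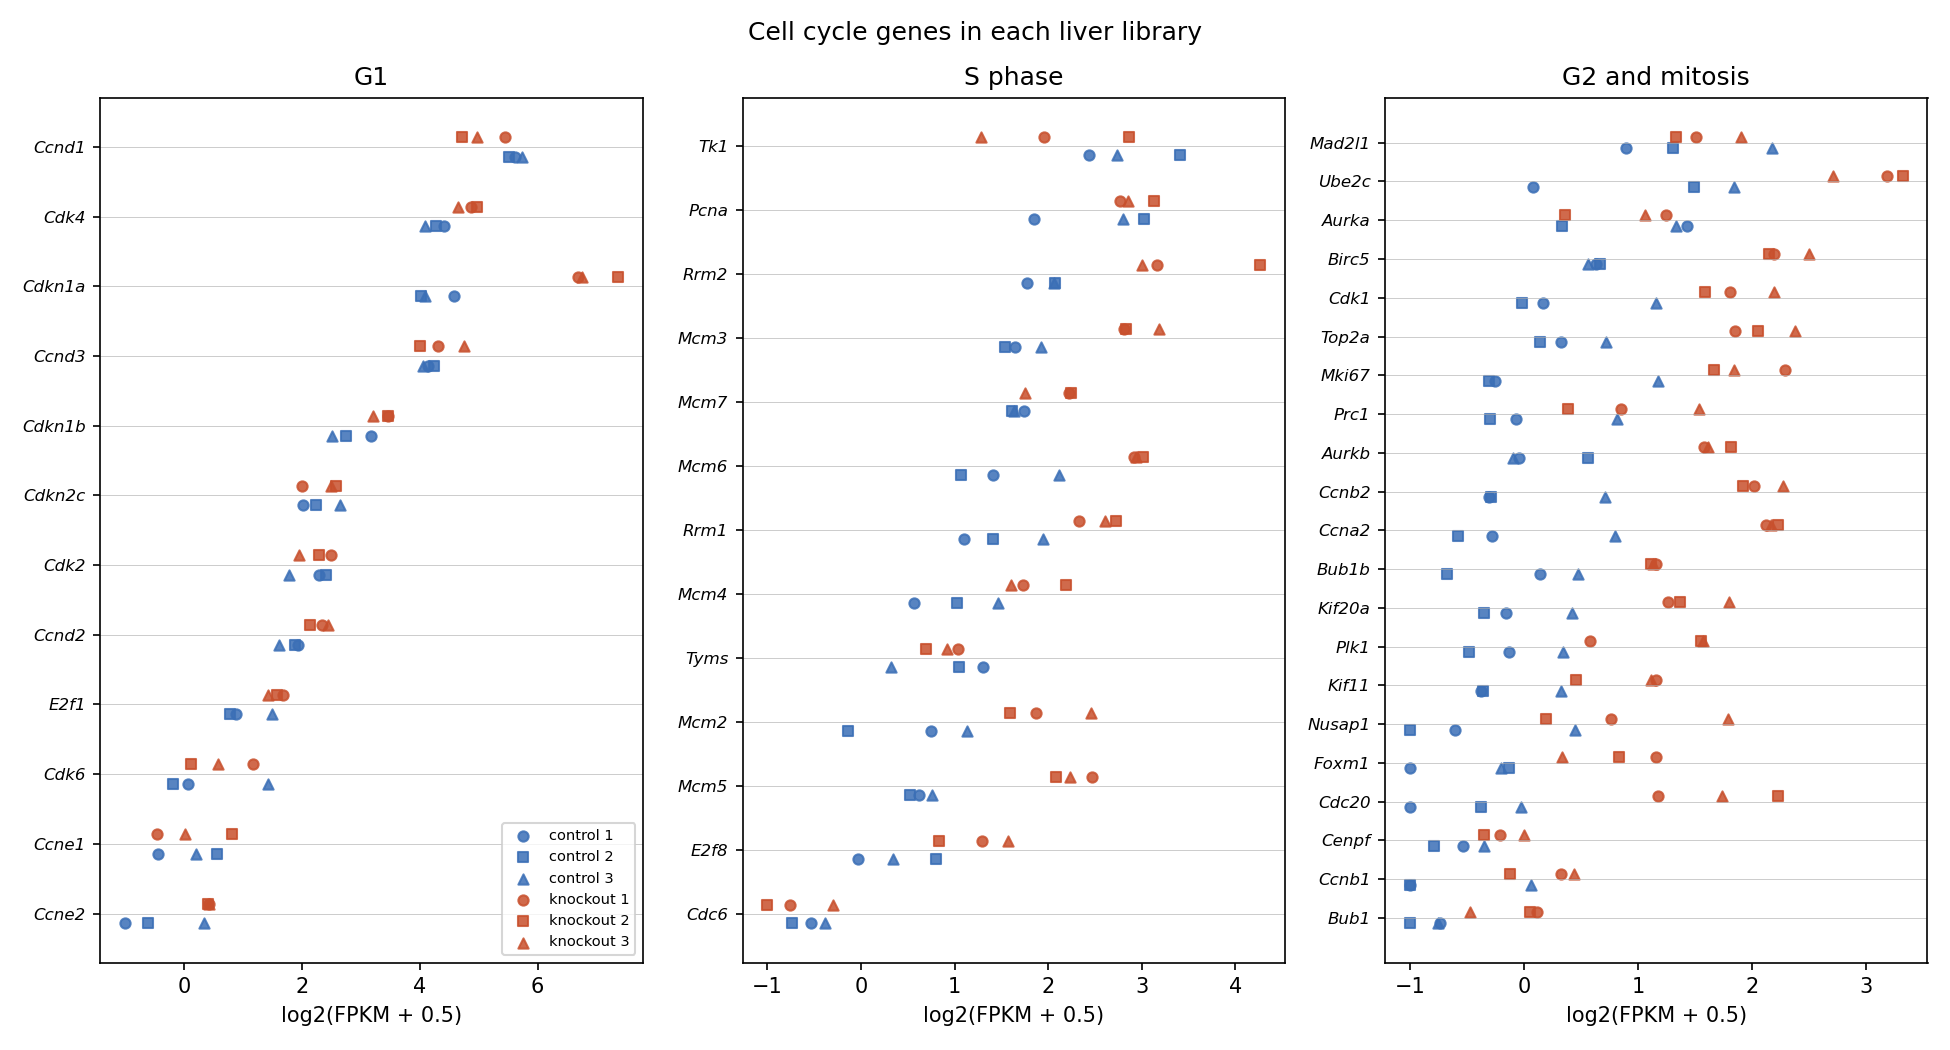
Level of each of the 46 genes as log2(FPKM + 0.5) (x axis) in every library, genes ordered by control mean within each phase; blue symbols are controls and red symbols knockouts, with a circle, square or triangle for library 1, 2 or 3. In the mitotic panel the red symbols lie to the right of the blue ones for 16 of 21 genes, and the blue triangle, control 3, is the rightmost control for 16.

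Of the 21 mitotic genes, 14 rose, 4 were tested without passing and 3 were not tested; the mean over the controls was under 0.5 FPKM for 8 of them. Ccna2, the cyclin that carries cells from S phase into mitosis, measured 0.324, 0.172 and 1.24 FPKM in the controls and 3.86, 4.18 and 3.99 FPKM in the knockouts. The knockouts lay close together and all above control 3, with a log2 fold change of 2.19 ± 0.35 (limma adjusted p = 0.00217). The ratio of means was 6.93, and 16.2 without control 3. Of its exonic bases 12.5% are shared with Exosc9, which had a log2 fold change of 0.36 (adjusted p = 0.138). Ccnb2, a B-type mitotic cyclin, measured 0.307, 0.319 and 1.14 FPKM in the controls and 3.54, 3.29 and 4.34 FPKM in the knockouts (log2 fold change 2.03 ± 0.32, adjusted p = 0.00200; ratio of means 6.33, and 11.9 without control 3). Their kinase Cdk1 measured 0.626, 0.487 and 1.73 FPKM against 2.997, 2.51 and 4.08 FPKM (log2 fold change 1.43 ± 0.34, adjusted p = 0.0141), and missed the threshold without control 1, control 2 or knockout 3.

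Mki67, Top2a and Birc5 rose. Mki67, the gene of the Ki-67 antigen, measured 0.340, 0.308 and 1.76 FPKM in the controls and 4.38, 2.67 and 3.09 FPKM in the knockouts, a log2 fold change of 1.73 ± 0.41 (limma adjusted p = 0.0129). Control 3 was far above both other controls, and the ratio of means was 4.21 with it and 10.4 without it. Without control 2 or knockout 1 the adjusted p of Mki67 was 0.0503 and 0.0526. Top2a, the topoisomerase that untangles sister chromatids, measured 0.750, 0.605 and 1.15 FPKM in the controls and 3.11, 3.65 and 4.70 FPKM in the knockouts (log2 fold change 1.70 ± 0.26, adjusted p = 0.00181). Birc5, survivin, measured 1.05, 1.09 and 0.977 FPKM against 4.06, 3.94 and 5.15 FPKM (log2 fold change 1.66 ± 0.22, adjusted p = 7.90e-04), and it was one of the genes in which control 3 was not raised.

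Cdc20 and Ube2c, which work with the anaphase-promoting complex, rose. Cdc20, its activator at the start of anaphase, was listed at 0, 0.271 and 0.482 FPKM in the controls and at 1.75, 4.18 and 2.83 FPKM in the knockouts, a log2 fold change of 2.18 ± 0.37 (limma adjusted p = 0.00272). Ube2c, the ubiquitin-conjugating enzyme that works with the complex, measured 0.555, 2.31 and 3.09 FPKM in the controls and 8.57, 9.51 and 6.03 FPKM in the knockouts (log2 fold change 1.93 ± 0.42, adjusted p = 0.00838). In both genes all knockout libraries were above all controls. Of the exonic bases of Ube2c 22.8% are shared with Tnnc2 on the other strand, which was listed at 0 in all 6 libraries.

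Of the aurora kinases, Aurkb rose and Aurka did not pass. Aurkb, the kinase of the chromosomal passenger complex, measured 0.471, 0.979 and 0.435 FPKM in the controls and 2.49, 3.02 and 2.56 FPKM in the knockouts (log2 fold change 1.53 ± 0.27, limma adjusted p = 0.00352). Its relative Aurka, the spindle pole kinase, measured 2.195, 0.760 and 2.03 FPKM against 1.87, 0.782 and 1.59 FPKM, with overlapping groups and a log2 fold change of -0.14 (95% interval -0.98 to 0.69). The difference between Aurkb and Aurka was not tested. Kif20a, a motor of cytokinesis, measured 0.399, 0.286 and 0.843 FPKM in the controls and 1.90, 2.09 and 2.97 FPKM in the knockouts (log2 fold change 1.503 ± 0.30, adjusted p = 0.00631). Of its exonic bases 29.3% are shared with Cdc23 on the other strand, which had a log2 fold change of -0.09 (adjusted p = 0.780).

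Other mitotic genes rose with calls that depended on single libraries and, for Bub1b, Foxm1 and Kif11, also on settings of the fit. The kinase Plk1 measured 0.414, 0.215 and 0.765 FPKM in the controls and 0.993, 2.43 and 2.47 FPKM in the knockouts (log2 fold change 1.33 ± 0.36, limma adjusted p = 0.0247). The spindle checkpoint kinase Bub1b measured 0.601, 0.125 and 0.887 FPKM against 1.73, 1.67 and 1.70 FPKM (log2 fold change 1.16 ± 0.34, adjusted p = 0.0308). Foxm1, the transcription factor of mitotic genes, was at 0, 0.416 and 0.370 FPKM in the controls and 1.73, 1.28 and 0.762 FPKM in the knockouts (log2 fold change 1.22 ± 0.37, adjusted p = 0.0353). Kif11, the spindle motor, measured 0.271, 0.282 and 0.750 FPKM against 1.73, 0.869 and 1.67 FPKM (log2 fold change 1.05 ± 0.34, adjusted p = 0.0459). In these 4 genes the groups did not overlap, yet Plk1 lost its call under 4 of 16 alternatives, Bub1b under 6 of 16, Foxm1 under 6 of 15 and Kif11 under 8 of 15. In the 16th alternative, a filter at a mean of 1 FPKM, Foxm1 and Kif11 were not tested. The left-out libraries that ended a call were controls 1 and 2 for all 4, knockout 1 for Bub1b, Foxm1 and Kif11, knockout 2 for Plk1, Bub1b and Foxm1, and knockout 3 for Plk1, Bub1b and Kif11. With all 6 libraries kept, pseudocount 0.1 ended the calls of Bub1b, Foxm1 and Kif11 (limma adjusted p = 0.0521, 0.0613 and 0.0547). The replicate block ended those of Foxm1 and Kif11. Kif11 also missed the threshold with the same-total scaling (adjusted p = 0.0631) and with no filter (adjusted p = 0.0508). The 8 mitotic genes called under all 16 alternatives were Top2a, Ccna2, Ccnb2, Cdc20, Aurkb, Birc5, Kif20a and Ube2c.

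Of the mitotic genes without a call, Mad2l1, a spindle checkpoint protein, measured 1.35, 1.97 and 4.01 FPKM in the controls and 2.34, 2.03 and 3.24 FPKM in the knockouts (log2 fold change 0.13, 95% interval -0.63 to 0.89). Nusap1, a spindle protein, measured 0.156, 0 and 0.865 FPKM against 1.20, 0.644 and 2.95 FPKM (log2 fold change 1.301, 95% interval 0.18 to 2.42, limma adjusted p = 0.0814), and passed without control 3 (1.72, adjusted p = 0.0367) or knockout 2 (1.66, adjusted p = 0.0495) and with library weights (1.54, adjusted p = 0.0318). Prc1, which bundles the central spindle, measured 0.314 to 1.26 FPKM in the controls and 0.809 to 2.40 FPKM in the knockouts (log2 fold change 0.78, 95% interval -0.13 to 1.68). Ccnb1, Bub1 and Cenpf fell under the filter. Ccnb1 was at 0, 0 and 0.543 FPKM in the controls and 0.752, 0.419 and 0.852 FPKM in the knockouts, and its reads may be split with pseudogenes that match it at over 95% identity, as may those of Mad2l1 and, in G1, Ccnd3. Bub1 and Cenpf stayed at or under 0.580 FPKM in all libraries, with every knockout above every control. CHR letters stood in 10 of the 10 mitotic genes that rose and have a promoter here, in 2 of the 4 without a call and in 2 of the 3 not tested. They stood in 27.6% of all promoters, and a link between these letters and the calls was not tested.

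How many mitotic genes passed changed when a library was left out: without 1 control, 9, 8 and 15 rose (controls 1, 2 and 3 in turn), and without 1 knockout, 10, 12 and 10 rose. With fewer libraries fewer genes can pass. Over all genes, 1669 rose with every library, 1193, 1166 and 1629 without controls 1, 2 and 3, and 1318, 1326 and 1365 without knockouts 1, 2 and 3. S phase genes that rose numbered 5 to 7 in the same fits. The summed level of the 21 mitotic genes was 10.6, 10.99 and 24.7 FPKM in the controls and 51.3, 50.8 and 58.1 FPKM in the knockouts, so that control 3 stood between the other controls and the knockouts. Control 3 was the highest control for 16 of the 21 mitotic genes, for 7 of 13 S phase genes and for 5 of 12 G1 genes.

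Sums of blood cell markers moved in the same direction as that of the mitotic genes, but the share of markers called differed between the lists. Over all tested genes 14.1% were called higher and 13% lower. The summed level of 10 monocyte and macrophage markers was 267, 266 and 543 FPKM in the controls and 938, 825 and 958 FPKM in the knockouts, with 9 of 10 called higher and control 3 again the highest control. Lyz2, named after its values were seen, was the largest part of that sum in the knockouts. It was at 85.6 to 264 FPKM in the controls and 422 to 535 FPKM in the knockouts. For 8 markers of neutrophil precursors, which divide, the sum was 58.8, 78.0 and 57.2 FPKM in the controls and 207, 213 and 234 FPKM in the knockouts, with 5 of 8 called higher. Most of that sum was Prtn3, named after its values were seen, at 49.5 to 75.2 FPKM in the controls and 154 to 192 FPKM in the knockouts. Ms4a3 and Fcnb of that list were at 0 in all controls and at 0.506 to 4.85 FPKM in the knockouts. Of the 8 markers, 7 had every knockout above every control, against 22.4% of tested genes. The other, Cebpe, overlapped, at 2.46 to 3.56 FPKM in the controls and 2.11 to 3.86 FPKM in the knockouts. Ms4a3, Fcnb and Cebpe were also named after their values were seen. The sum over 10 B and plasma cell markers was 2.81, 2.85 and 7.21 FPKM in the controls and 16.8, 25.4 and 34.2 FPKM in the knockouts, with 5 called higher and the precursor gene Igll1 at 0 throughout. For 10 other neutrophil markers, among them granule genes such as Camp, Ngp and Ltf that developing neutrophils transcribe, the sum was 36.6 to 73.0 FPKM in the controls and 1722 to 1807 FPKM in the knockouts, with 10 called higher. The control mean reached 0.5 FPKM for 5 of 8 precursor, 5 of 10 other neutrophil and 4 of 10 B and plasma cell markers. The rest could enter the test through the knockouts alone. With no filter, 7, 10 and 5 of these lists were higher, against 10.2% of genes. Of 12 erythroid precursor markers 2 were called higher (16.7%, near the share of all genes) and 6 were not tested. Their sum was 18.0 to 23.98 FPKM in the controls and 33.2 to 43.9 FPKM in the knockouts, with Ank1 and Ermap under 0.5 FPKM everywhere. Of 9 T and NK cell markers 2 were called higher (22.2%) and 6 overlapped between the groups. Their sum was 6.68, 4.06 and 5.32 FPKM in the controls and 10.7, 15.1 and 14.8 FPKM in the knockouts, and control 3 was not the highest control. Of 9 stellate cell markers 6 were higher, with sums of 159 to 203 against 288 to 367 FPKM. Of 12 endothelial markers 7 were lower, with sums of 132 to 205 against 66.8 to 76.2 FPKM, and 4 overlapped between the groups. Clec4g, named after its values were seen, went from 44.4 to 63.8 FPKM in the controls to at most 0.381 FPKM in the knockouts. Much of the fall in the endothelial sum was this gene. Control 3 was the highest control for the stellate and endothelial sums as well. The part of any of these cells in the rise of the cycle genes was not tested.

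**Figure D5:**
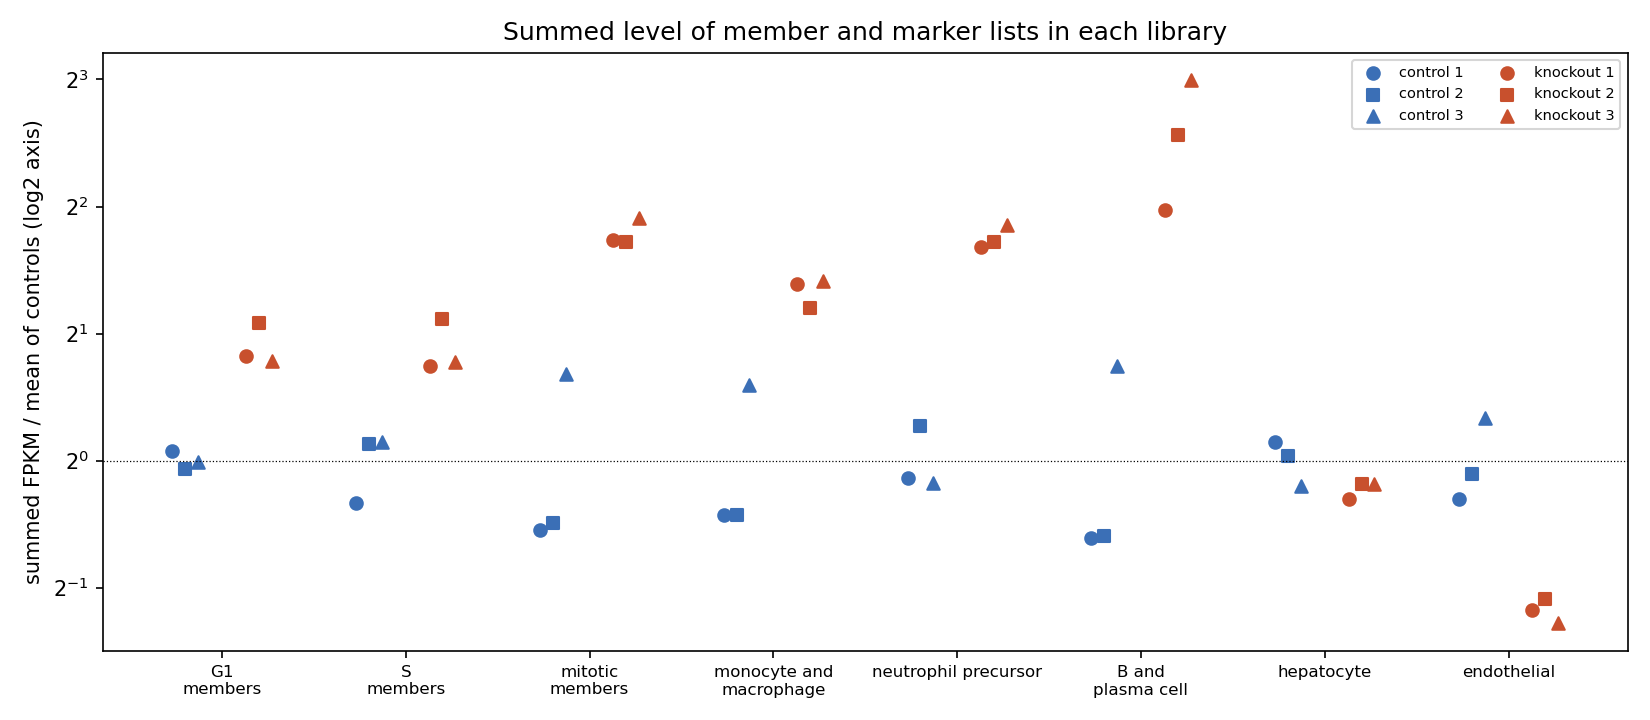
Summed FPKM of the genes of each list in each library, divided by the mean of the 3 controls (y axis, log2 scale), for the 3 phases and for markers of 5 cell types; blue symbols are controls and red symbols knockouts, with a circle, square or triangle for library 1, 2 or 3. Control 3, the blue triangle, lies above the other controls for the mitotic genes and for monocyte and macrophage, B and plasma cell and endothelial markers. For the S phase genes it lies just above control 2. The endothelial markers are lower in the knockouts.

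Genes of the same pathways outside the 46 followed in part. Of 49 other mitotic genes, 14 rose (28.6%, against 14.1% of all tested genes) and 1 fell (2.04%, against 13%), 16 were too low to be tested, and the median log2 difference was 0.74. Among them Racgap1, an organiser of cytokinesis, measured 0.152, 0.158 and 1.41 FPKM in the controls and 2.77, 2.61 and 1.74 FPKM in the knockouts, a log2 fold change of 1.599 with limma adjusted p = 0.0224, and did not pass without control 1, control 2, knockout 1 or knockout 2. The spindle assembly factor Tpx2 (log2 fold change 1.57, adjusted p = 0.0119), the motor Kif22 (1.54, adjusted p = 0.00848) and the motor Kif23 (1.51, adjusted p = 0.00454) also rose. Their control means were 0.364, 0.285 and 0.384 FPKM, so they passed the filter through the knockouts alone. Of this list 18 of 49 reached 0.5 FPKM in the controls and 33 were tested. Among the genes that rose, only Racgap1 and, named after their values were seen, Cdca8 and Smc4 had a control mean of 0.5 FPKM or more. The 28.6% therefore rests mostly on genes that the knockouts brought into the test. With no filter, 15 of the 49 rose and 1 fell, against 10.2% of genes that rose with no filter. The gene that fell was Cenpm, a centromere component, named after its values were seen, at 6.94, 8.90 and 6.04 FPKM in the controls and 3.53, 3.06 and 2.70 FPKM in the knockouts. Other mitotic genes that rose numbered 6 without control 1, 6 without control 2, 8 without knockout 1 and 9 without knockout 3, and 6 with a filter at a mean of 1 FPKM.

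Of 42 replication genes beyond the MCM ring, 4 rose (9.52%, against 14.1% of all tested genes) and 2 fell (4.76%, against 13%). In this list 4 genes were too low to be tested, and the median log2 difference was 0.26. Mcm10, a replication initiation factor that is no subunit of the MCM ring (ENSMUSG00000026669, chromosome 2, 4989714 to 5012791 in GRCm38), was at 9.75, 8.01 and 8.87 FPKM in the controls and 1.94, 0.946 and 1.92 FPKM in the knockouts. Its log2 fold change was -2.19 ± 0.25 (limma adjusted p = 3.98e-04), opposite in sign to that of the ring genes. Per length, the ratio of the Mcm10 level to the summed level of Mcm2 to Mcm7 was 0.900, 0.848 and 0.595 in the controls and 0.0673, 0.0329 and 0.0633 in the knockouts. That the groups separate in this ratio was fixed in advance, since Mcm10 and the ring sum each separated them, in opposite directions. It adds no support beyond those values. Gins2, a partner of the helicase, measured 0.973, 0.506 and 0.451 FPKM in the controls and 3.28, 4.16 and 1.58 FPKM in the knockouts (log2 fold change 1.57, adjusted p = 0.00973), and 67.3% of its exonic bases are shared with Gse1 on the other strand, which had a log2 fold change of 0.52 (adjusted p = 0.0923). Uhrf1, which maintains DNA methylation behind the fork, and the flap nuclease Fen1 rose by 1.19 (adjusted p = 0.0210) and 1.10 (adjusted p = 0.0252) on the log2 scale; 78.8% of the exonic bases of Fen1 are shared with an antisense RNA that was not analysed here. The control mean of Uhrf1, 0.417 FPKM, was under the filter. Uhrf1 did not pass without control 1, control 2 or knockout 1, nor Fen1 without control 1, control 3, knockout 2 or knockout 3. Replication genes that rose numbered 1 without control 1 and 2 without control 2, and 8 without a variance trend.

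Of 33 other G1 and checkpoint regulators, 2 rose (6.06%, against 14.1% of all tested genes) and 1 fell (3.03%, against 13%). In this list 5 genes were too low to be tested, and the median log2 difference was 0.06. Myc, the growth-promoting transcription factor, measured 0.945, 0.589 and 1.05 FPKM in the controls and 4.35, 7.06 and 5.74 FPKM in the knockouts (log2 fold change 2.18 ± 0.26, limma adjusted p = 4.83e-04). Wee1, the kinase that restrains Cdk1 before mitosis, measured 0.518, 0.403 and 1.31 FPKM in the controls and 2.23, 2.90 and 1.97 FPKM in the knockouts (log2 fold change 1.26, adjusted p = 0.0180). Lin37, a subunit of the DREAM complex, fell by 1.05 on the log2 scale (adjusted p = 0.0167). Wee1 did not pass without control 1, control 2 or knockout 2, nor Lin37 without control 2. Myc, like Cdkn1a, was highest in knockout 2, the library with the lowest Ccnd1 level. Regulators that rose numbered 1 without control 1, 1 without control 2 and 4 with library weights.

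In a list of 22 genes that p53 can induce, 8 rose, Cdkn1a included (36.4%, against 14.1% of all tested genes), and 1 fell (4.55%, against 13%), with a median log2 difference of 0.25. Btg2, an antiproliferative factor that growth and stress signals also induce, measured 6.07, 4.797 and 4.26 FPKM in the controls and 50.9, 77.3 and 45.6 FPKM in the knockouts. As with Cdkn1a, the groups were far apart and knockout 2 was the highest (log2 fold change 3.37 ± 0.22, limma adjusted p = 3.07e-05). Pmaip1, a trigger of apoptosis, rose by 1.41 (adjusted p = 0.00529), Gadd45a, a DNA damage and stress gene, by 1.40 (adjusted p = 0.0371) and Trp53inp1 by 1.32 (adjusted p = 0.00848) on the log2 scale; Gadd45a did not pass without control 1, control 3, knockout 1 or knockout 2. The gene that fell was Ei24, named after its values were seen, from 98.0 to 113 FPKM in the controls to 59.1 to 67.1 FPKM in the knockouts. Genes of this list that rose numbered 5 without control 3, 5 without knockout 1, 5 without knockout 2, 5 with no filter on low values and 5 without a variance trend.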

How the data were processed

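Liver RNA was sequenced from both ends in 6 libraries prepared with TruSeq Sample Prep v2 reagents, per the labels' protocols. The deposited values are FPKM per gene, 1 column per library. Per the submitters' processing notes the authors used Cuffnorm 2.2.1 and Cuffdiff 2.2.1 after TopHat2 2.1.0 and Trimmomatic 0.33, on the mm9 build; no source used here names the gene annotation. FPKM values are not counts, so no count test was run and no counting interval can be given; an exact 0 can be a failed estimate. Alb, at 0 in all controls, was left out as one.

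The 2 groups were compared in limma 3.58.1 under R 4.3.3 (lmFit, eBayes with a variance trend, two-sided) on log2(FPKM + 0.5), over the 11842 genes averaging 0.5 FPKM or more, with Benjamini-Hochberg adjustment over all of them. Genes were called at an adjusted p under 0.05. The members, lists and alternatives were chosen with earlier results of these data known. All 46 genes are accounted for; of the other pathway lists up to 4 called genes with the largest change and no overlap are named. The 16 alternatives changed scaling, pseudocount, filter, variance model, weights or the replicate block, or left out 1 library. The fit was tested on simulated data. Places and shared exons come from the GRCm38 annotation of GENCODE, a later build than the authors', and copies are matches of at least 300 bases and 95% identity by blastn 2.17.0. No source used here says whether counting used strand. Single values were tested by exact permutation with scipy 1.17.1, and figures were drawn with matplotlib 3.10.9. The deposited table pairs no IDs with names, so its row names were used as symbols.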

Additional observations from a re-analysis of the deposited data

How the results depend on the processing

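Of the 23 members with a call, Cdkn1a, 5 S phase genes (Mcm3, Mcm5, Mcm6, Rrm1 and Rrm2) and 8 mitotic genes kept it under all 16 alternatives. G1 genes that rose numbered 1 with each library rescaled to the same total and 1 without a variance trend, and G1 genes that fell numbered 0 with the median ratio scaling, pseudocount 0.1, no filter, no variance trend or library weights. With the replicate block, 1 S phase gene (Tk1) fell and 1 other replication gene fell, against 0 and 2; the block made no other count of calls move by over 1.5 times. Among the members, Tk1 (limma adjusted p = 0.0451) and Nusap1 (0.0194) passed with the block, and Foxm1 (0.0588) and Kif11 (0.0505) did not. The correlations of same-numbered libraries around their group means were -0.01, -0.00012 and 0.0015, so the numbers are not taken to pair the libraries. Other replication genes that rose numbered 8 without a variance trend. Other mitotic genes that rose numbered 6 with a filter at 1 FPKM, and 2 fell with the same-total scaling or with library weights. Other G1 and checkpoint regulators that rose numbered 4 with library weights, and p53 targets that rose numbered 5 with no filter or no variance trend.

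Leaving out 1 library at a time gave 1166 to 1629 genes higher and 935 to 1484 lower over all genes (990 without control 1, 935 without control 2); for G1 genes 1 to 3 higher (1 without control 2, knockout 1 or knockout 2) and 0 to 1 lower (1 only without knockout 1); for S phase genes 5 to 7 higher and 0 to 1 lower (1, Tk1, without knockout 2); for mitotic genes 8 to 15 higher (9 without control 1, 8 without control 2); for other replication genes 1 to 5 higher (1 without control 1, 2 without control 2) and 1 to 2 lower (2 only without control 3); for other mitotic genes 6 to 16 higher (6 without control 1 or control 2, 8 without knockout 1, 9 without knockout 3) and 1 to 3 lower (3 without control 3); for other G1 and checkpoint regulators 1 to 3 higher (1 without control 1 or control 2); and for p53 targets 5 to 6 higher (5 without control 3, knockout 1 or knockout 2). With fewer libraries fewer genes can pass.

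Signs changed for 7 members without a call and for Map3k7, which was at 0.0029 with the median ratio scaling and at -0.099 to 0.062 with 1 library left out. Leaving out 1 library, log2 fold changes ran from -0.13 to 0.68 for Cdk6, -0.33 to 0.31 for Ccne1, -0.10 to 0.23 for Cdk2, -0.085 to 0.24 for Cdkn2c, -0.29 to 0.20 for Tyms, -0.50 to 0.12 for Aurka and -0.16 to 0.48 for Mad2l1. With the same-total scaling Ccne1 was at -0.047, Cdk2 at -0.018 and Cdkn2c at -0.053. With library weights Ccne1 was at -0.11 and Aurka at 0.039, with pseudocount 0.1 Ccne1 was at -0.0029 and Tyms at 0.0093, and with the median ratio scaling Tyms was at 0.028. The causes were not tested. Absolute depth is unknown, which limits what can be said of genes under 0.5 FPKM.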
